A study of Mus musculus with 264 samples.

Results

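The lowest ethanol dose of the series, 25 mM, was compared with no ethanol in the culture set labelled Set-B. The comparison took every Set-B neurosphere whose column name carried one of these doses: 32 at 25 mM and 34 at 0 mM, 66 of the 264 neurospheres in all. Run 1 held 11 neurospheres of each dose, and run 3 held 21 at 25 mM and 23 at 0 mM. The cells were C57/Bl6 mouse neuroepithelium, dissected from the fetal dorsal telencephalon on gestational day 12.5, grown without attachment in medium with basic fibroblast growth factor, epidermal growth factor and leukemia inhibitory factor, and the doses differ by label only in ethanol. The sample labels give 25 mM and the treatment protocol gives 26 mM for this dose; ethanol in the medium was measured at days 0, 3 and 5. Cells of whole litters were pooled, and Set-B is 1 of 2 culture sets. The p-values below therefore measure the spread between neurospheres within that set, and they understate the uncertainty about other cultures.

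Neurospheres are free-floating balls that form when neural progenitor cells of the embryonic brain divide in growth factor medium. Each ball holds stem-like cells together with more mature progeny, so balls of one culture can differ in size and in the state of their cells. Ethanol is a known developmental toxicant of the brain, and the cortical precursors of the dorsal telencephalon are among the cells exposed when it crosses the placenta. By its title, the study looked at how ethanol moves neurospheres along paths of maturation, and the lowest dose asks this of the mildest exposure.

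Each neurosphere was read by RT-qPCR on a microfluidic array with 75 assays in the deposited table; the labels speak of 96 genes, and the others are not analysed here. The value is the cycle at which product appears, so a lower number means more template, and 1 cycle is about 1 doubling. The assays carry codes, the files do not pair them with genes, and 0 of 75 codes matched the mouse gene table. The roles of the transcripts and the marker genes of neural or other cell types are therefore not analysed here. The 66 neurospheres gave cycle numbers between 2.90 and 28.8. Missing entries, 808 of 4950 (16.3%), were taken as not detected, and 39 assays were detected in all 66. The relative level of an assay is its cycle number subtracted from the neurosphere's mean over the 50 widely detected assays, those found in at least 95% of all 264 neurospheres. It is in log2 units, and higher means more. A change below is the relative level at 25 mM minus that at 0 mM, with run as a covariate.

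Relative levels shifted in both directions at 25 mM. Of 63 assays tested, 25 changed (39.7%), with 10 rises (15.9%) and 15 falls (23.8%) at an adjusted p under 0.05 in limma. The rises ran from 0.41 to 2.90 log2 units with a median of 2.19-fold, and the falls from -0.51 to -2.70, where the level at 0 mM was a median of 2.58-fold that at 25 mM. Changes above 2-fold made up 15 of the 25, 5 rises and 10 falls. Of the 38 assays that did not pass, 18 had a 95% interval that stayed within a 2-fold change either way, and for 20 the interval reached beyond it. The balance of rises and falls moved with the scaling. Centring on the median of the widely detected assays gave 15 rises and 12 falls, and centring on the assays detected in every neurosphere of the series gave 18 and 10. Without normalization there were 0 and 5. The median of all 63 changes was 0.04 as reported and 0.20, 0.36 and -0.47 under these settings. Without normalization 24 of the 25 assays had the same direction, and 5 passed.

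A025 and A019 had the largest rises among assays that moved the same way in both runs. In run 1 the relative level of A025 at 0 mM ran from -6.14 to -3.23 with a median of -4.33, in the 10 of 11 neurospheres that gave a value. At 25 mM in run 1 it ran from -3.13 to 0.71 with a median of -1.59. All 11 neurospheres at 25 mM thus lay above the highest control of that run. In run 3 the values overlapped: -8.40 to 0.31 with a median of -2.72 at 0 mM, and -5.66 to 0.28 with a median of -1.57 at 25 mM, where 19 of 21 lay above the control median. The change of A025 was 2.31 (SE 0.45, adjusted p = 1.76e-05, limma), a 4.96-fold rise, with 3.29 in run 1 (SE 0.50) and 1.85 in run 3 (SE 0.60). The call ended without normalization (1.78, adjusted p = 0.172) and among the run 3 neurospheres of code letter B alone (0.85, adjusted p = 0.508), against 3.15 for code letter C (adjusted p = 0.00263).

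A019 rose by 2.05 log2 units (SE 0.36, adjusted p = 3.72e-06, limma), which is 4.13-fold. In run 1 its relative level ran from -2.03 to 2.41 with a median of -0.56 at 0 mM, and from 0.86 to 8.87 with a median of 2.23 at 25 mM. Run 3 gave -3.57 to 0.38 with a median of -1.32 at 0 mM, and -3.46 to 1.48 with a median of 0.71 at 25 mM. All 11 neurospheres at 25 mM in run 1 and 19 of 21 in run 3 were above the control median of their run, and 3 and 13 of them were above the highest control. The change was 3.15 in run 1 (SE 0.82) and 1.49 in run 3 (SE 0.31). Without normalization it was 1.54 and did not pass (adjusted p = 0.0923).

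A071 fell by 1.96 log2 units (SE 0.25, adjusted p = 3.88e-09, limma), and most exposed neurospheres lay below every control of their run. In run 1 its relative level ran from 0.33 to 5.20 with a median of 1.44 at 0 mM, and from -1.37 to 0.95 with a median of -0.32 at 25 mM. In run 3 the values were 1.04 to 4.11 with a median of 2.40 at 0 mM, and -0.52 to 2.78 with a median of 0.90 at 25 mM. The neurospheres at 25 mM lay below the lowest control of their run in 9 of 11 cases in run 1 and 16 of 21 in run 3. The change was -2.22 in run 1 (SE 0.52) and -1.83 in run 3 (SE 0.28), and without normalization it was -2.46 (adjusted p = 0.0234), which passed.

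A006 had the largest fall, -2.70 log2 units (SE 0.57, adjusted p = 0.000213, limma), among the neurospheres that detected it. Those were 20 of 34 at 0 mM and 13 of 32 at 25 mM. In run 3 its relative level ran from -9.19 to -3.22 with a median of -4.96 at 0 mM (14 values), and from -9.98 to -5.63 with a median of -8.69 at 25 mM (10 values). All 10 lay below the control median, and 4 below the lowest control. In run 1 only 3 neurospheres at 25 mM gave a value, -8.75, -8.34 and -7.57, within the range of the 6 controls from -9.79 to -3.61. The run 1 change alone was -1.45 (SE 1.26, adjusted p = 0.596) and did not pass; that of run 3 was -3.13 (SE 0.60, adjusted p = 0.000197). Without normalization the call ended (-2.38, adjusted p = 0.107).

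**Figure D1:**
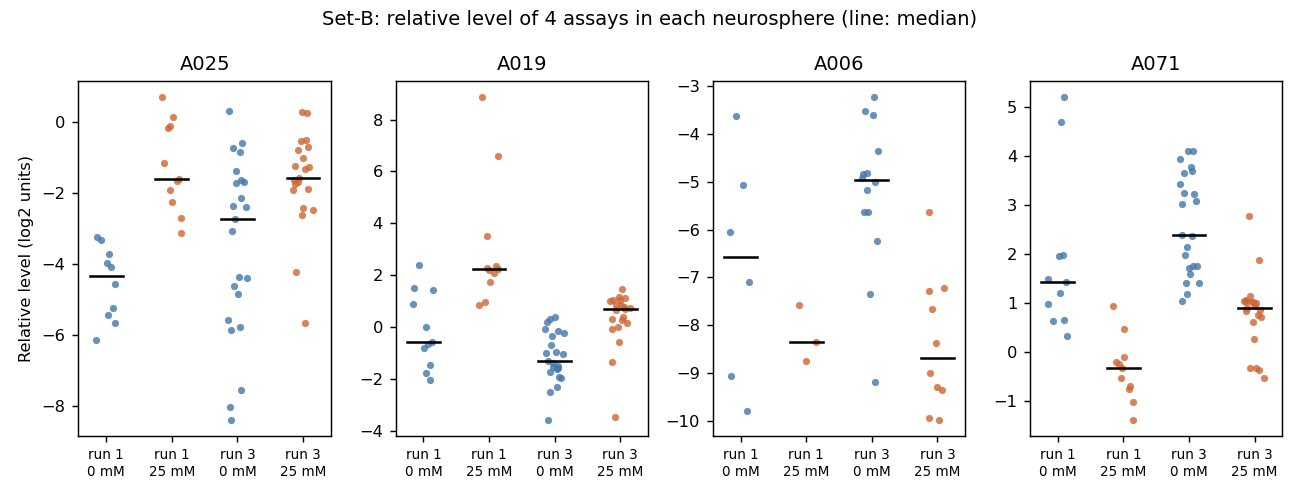
Relative level in log2 units (vertical axis) of the assays A025, A019, A006 and A071 in each Set-B neurosphere that detected them, by run and ethanol dose; points are neurospheres and lines are medians. All 11 points of A025 at 25 mM in run 1 lie above the controls, and 16 of 21 points of A071 at 25 mM in run 3 lie below them.

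The runs were compared because they are separate arrays with their own controls. Run 1 alone called 9 of 63 assays, 3 higher and 6 lower (14.3%), and run 3 alone, with more neurospheres, called 23, 9 higher and 14 lower (36.5%). In both runs 6 assays passed, all with the same direction. Of the 25 assays called with the runs combined, 22 had the same direction in each run, against 42 of all 63; run 1 and run 3 are parts of the combined fit, so this is a description. Across the 63 assays the changes of the runs correlated with Pearson's r = 0.36, and with 0.62 without A001; assays are not independent replicates. The test of the difference between runs passed for 1 assay of 63 (1.59%), A001, with 9 at an unadjusted p under 0.05.

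A001, named because it was alone in that test, rose by 10.1 log2 units in run 1 (SE 1.64, adjusted p = 0.000179, limma), while its change in run 3 was -0.24 (SE 0.65, adjusted p = 0.79). In cycles, its run 1 controls ran from 17.8 to 24.3 in 10 neurospheres. At 25 mM in run 1, 6 of the 8 neurospheres with a value read 7.23 to 8.05 cycles, and the other two read 18.8 and 22.2. The rise in run 1 is thus a gap between early and late readings, and whether the early readings are product of the intended transcript was not tested. In run 3 no neurosphere of either dose read under 10 cycles: values ran from 13.8 to 27.6 at 0 mM and from 17.6 to 28.8 at 25 mM. The run difference was -10.3 (SE 1.51, adjusted p = 3.27e-07), and it did not pass when missing values were taken as 30 cycles (-6.45, adjusted p = 0.172). The combined change of 2.90 (SE 0.92, adjusted p = 0.00923) counts among the 10 rises although run 3 alone had the opposite sign. That call ended without normalization (2.40, adjusted p = 0.173), with missing values at 30 cycles (1.57, adjusted p = 0.318) and in the medium-sized neurospheres alone (0.67, adjusted p = 0.533). Values under 10 cycles, a limit set after the values were seen, were also read for A001 in run 1 at 70 mM of Set-B (all 10 that gave a value), at 100 mM of Set-B (10 of 11) and in unexposed Set-A neurospheres (8 of 11). A001 is one of the widely detected assays, and with A001 left out of their mean, a setting added after seeing the data, 27 assays passed, 13 higher and 14 lower.

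**Figure D2:**
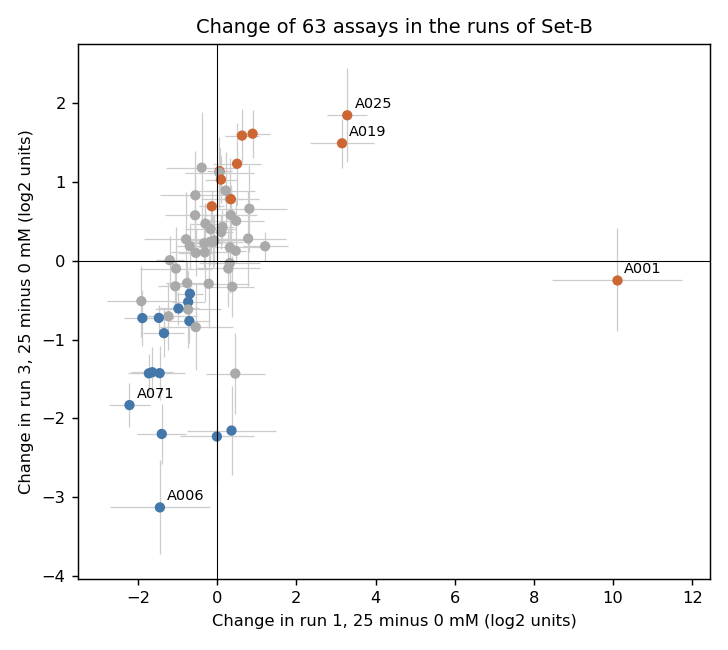
Change at 25 mM (log2 units) of 63 assays in run 1 (horizontal axis) and run 3 (vertical axis), with SE bars; orange points rose and blue points fell in the fit of both runs, and grey points did not pass. A001 lies at 10.1 in run 1 and -0.24 in run 3, apart from the other assays. A025, A019, A006 and A071 are also labelled, and they were chosen among assays with the same direction in both runs.

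Detection changed for a single assay. Of 27 assays detected in 5% to 95% of the 66 neurospheres, 1 passed (3.7%; exact conditional Mantel-Haenszel test with run as stratum, adjusted p under 0.05), and 2 had an unadjusted p under 0.05. A few of the 27 had no value in a whole run at either dose, so only the other run informs their test. The assay that passed, A004, is named for being alone in its test. A value was present in 19 of 34 unexposed neurospheres (55.9%) and in 4 of 32 exposed ones (12.5%; adjusted p = 0.00785). The counts were lower in both runs, with 6 of 11 against 2 of 11 in run 1 and 13 of 23 against 2 of 21 in run 3. Run 1 alone and the medium-sized neurospheres alone gave 0 calls. With 2 exposed neurospheres per run detecting A004, its level was not tested. At 70 and at 100 mM every Set-B neurosphere detected A004, 11 of 11 in run 1 and 22 of 22 in run 3 at each dose. In Set-A at 0 mM it was detected in 11 of 11 in run 1 and 23 of 23 in run 2. At 25 mM the Set-A counts were 11 of 11 and 19 of 21. Over all 75 assays the mean number detected was 69.2 at 70 mM and 71.5 at 100 mM of Set-B, against 62.97 in unexposed Set-B neurospheres. In Set-A that mean was 68.6 at 0 mM and 66 at 25 mM. These groups thus detected more assays in general, and the detection of A004 in them was not tested. In Set-B a neurosphere had 62.97 ± 6.01 detected assays (SD) at 0 mM and 62.5 ± 5.89 at 25 mM, a within-run difference of -0.37 (SE 1.42, adjusted p = 0.798, permutation test).

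The test of total signal did not pass. Averaged over the widely detected assays, the cycle number ran from 9.22 to 17.4 with a median of 14.7 at 0 mM, and from 10.6 to 19.5 with a median of 14.7 at 25 mM. Within runs the exposed neurospheres came 0.50 cycles later (SE 0.55), with an adjusted p of 0.547 over 6 whole-neurosphere measures (permutation test), with -0.01 in run 1 (SE 0.81) and 0.76 in run 3 (SE 0.73). A neurosphere is a bulk sample, so fewer cells and less RNA per cell cannot be told apart in this measure.

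Within run 3 the combined value held differences of opposite sign, and the adjusted p of code B lay at the edge of the threshold. Names there carry a code letter, mostly B or C, whose meaning the labels do not state; they were compared after the values were seen. Among code B neurospheres the mean cycle number was 13.4 ± 2.68 (SD) in the 12 unexposed and 16.1 ± 2.26 in the 12 exposed, a difference of 2.65 cycles (SE 1.01, adjusted p = 0.0498, permutation test). Among code C neurospheres it was 14.6 ± 2.12 (SD) in the 10 unexposed and 13.1 ± 1.32 in the 9 exposed, a difference of -1.55 that did not pass (SE 0.82, adjusted p = 0.153, permutation test). The differences of the letters differed from each other by -4.20 cycles (SE 1.35, adjusted p = 0.00816, permutation test over 3 measures). Detected assays followed the same split, with 65.1 and 60.3 in code B and 63.5 and 67.6 in code C at 0 and 25 mM, and a difference between letters of 8.81 (SE 3.36, adjusted p = 0.0142). Diameter did not pass that test (-0.04 log2 units, SE 0.22, adjusted p = 0.834).

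For relative levels, code B alone, with 12 neurospheres at each dose, called 11 of 63 assays. Code C alone, with 10 at 0 mM and 9 at 25 mM, called 20 of 63. Of the 25 assays called with all neurospheres, 22 had the same direction in run 1, code B and code C, against 33 of all 63. Run 1, code B and code C are parts of the fit that chose the 25, so this is a description. With run and code letter as a block 23 assays passed, 8 higher and 15 lower, all 23 among the 25.

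The test of mean diameter did not pass, and that of the spread of diameter did. Diameter was 43.0 ± 9.21 micrometres (SD) in the 34 unexposed neurospheres, from 27.7 to 74.7 with a median of 40.4, and 40.6 ± 12.5 in the 32 exposed ones, from 19.7 to 73.3 with a median of 39.1. The difference in log2 diameter was -0.12 (SE 0.09, adjusted p = 0.38, permutation test). The absolute deviation of log2 diameter from the median of its run and dose was larger at 25 mM by 0.15 (SE 0.05, adjusted p = 0.0487, permutation test). It was larger by 0.17 in run 3 (SE 0.06, adjusted p = 0.0413) and by 0.10 in run 1 (SE 0.11, adjusted p = 0.547), where it did not pass. By the labels' size groups, 5 neurospheres were small, 26 medium and 3 large at 0 mM, and 12 were small, 15 medium and 5 large at 25 mM. The small class went from 1 to 4 in run 1 and from 4 to 8 in run 3, while the large class went from 2 to 4 in run 1 and held 1 neurosphere at each dose in run 3.

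**Figure D3:**
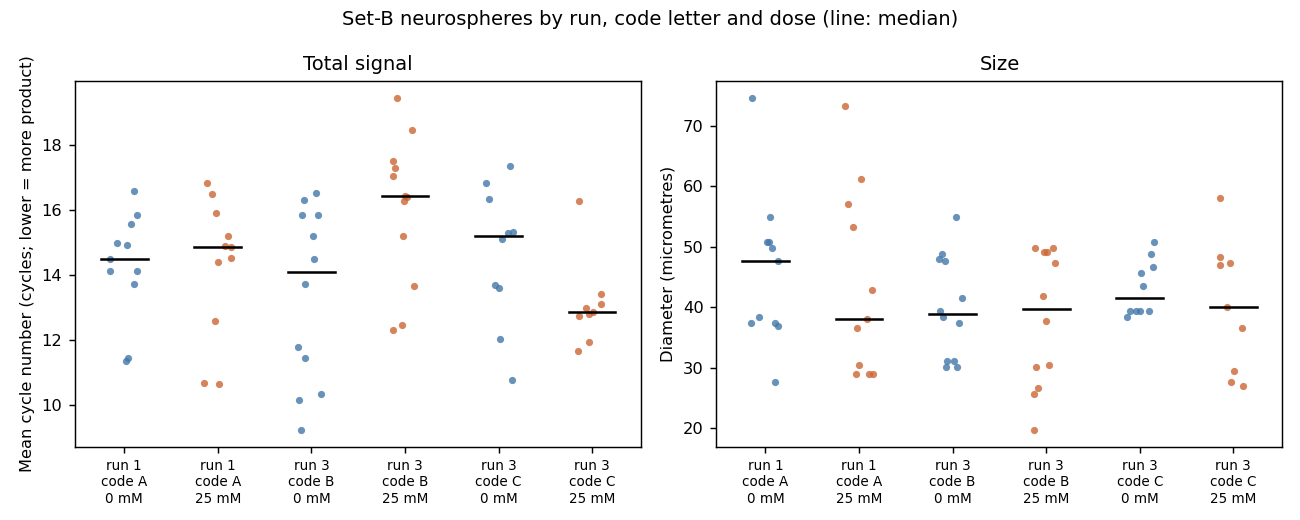
Mean cycle number (left, cycles) and diameter (right, micrometres) of each Set-B neurosphere by run, code letter and dose, with medians as lines; the 1 unexposed run 3 neurosphere of code letter A is not drawn. In code C at 25 mM the median is 12.8 cycles, below the control median of 15.2, while in code B it is 16.4, above the control median of 14.1.

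No relation between diameter and total signal passed a test. Within the 4 combinations of run and dose, Pearson's r between log2 diameter and mean cycle number was -0.36 and -0.31 in run 1 at 0 and 25 mM, and -0.11 and -0.38 in run 3. Spearman's rho was -0.31, -0.07, -0.15 and -0.41 in the same order, and the lowest adjusted p was 0.342 for r and 0.276 for rho (permutation tests). Without the 2 neurospheres farthest from the median diameter, r was -0.28, 0.78, -0.25 and -0.24, so the run 1 value at 25 mM rests on those neurospheres. With log2 diameter as a covariate 26 assays passed, 24 of them among the 25.

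Relative levels varied less between exposed neurospheres for most assays, and the test passed for few of them. The within-run SD was lower at 25 than at 0 mM for 53 of 63 assays, with a median of 1.46 log2 units at 0 mM and 0.97 at 25 mM. Without normalization it was lower for 28 of 63, and the median change of the absolute deviation turned from -0.24 to 0.15. A limma test on absolute deviations from the median passed for 2 assays (3.17%), both lower, and 16 had an unadjusted p under 0.05, all 16 lower. The assays that passed are named for being the only ones in this test. A040 had an SD of 1.72 at 0 mM and 0.81 at 25 mM, and its mean absolute deviation fell by 0.82 (SE 0.21, adjusted p = 0.0137, limma). A044 had an SD of 2.14 at 0 mM and 1.11 at 25 mM, and its mean absolute deviation fell by 0.93 (SE 0.25, adjusted p = 0.016, limma). A040 was also among the falls in level (-1.93, SE 0.33, adjusted p = 2.74e-06), whereas the level change of A044 did not pass (-0.75, SE 0.45, adjusted p = 0.178). Without normalization neither spread call passed (adjusted p = 0.319 and 0.396, limma). Run 3 alone called 14 assays, all lower, and run 1 alone called 0. In run 1 A040 and A044 each had an adjusted p of 0.915 (limma).

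Over the whole profile, a neurosphere deviated from the median profile of its run and dose by 1.32 ± 0.54 log2 units (SD) in the 34 unexposed and 1.09 ± 0.46 in the 32 exposed. The difference of -0.24 did not pass (SE 0.12, adjusted p = 0.174, permutation test). In run 3 it was -0.36 (SE 0.13, adjusted p = 0.0243) and in run 1 0.01 (SE 0.26). Without normalization the difference was 0.03 (SE 0.32, adjusted p = 0.915) and the sign turned. The deviation of the mean cycle number was 0.20 cycles larger at 25 mM (SE 0.38, adjusted p = 0.722). Among the groups of run, code letter and dose, the SD of the profile deviation was lowest, 0.12, in the 9 code C neurospheres at 25 mM. Their profile deviations ran from 0.44 to 0.84, against 0.54 to 1.75 in code C controls. That group was picked after the values were seen, and its difference from the others was not tested.

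**Figure D4:**
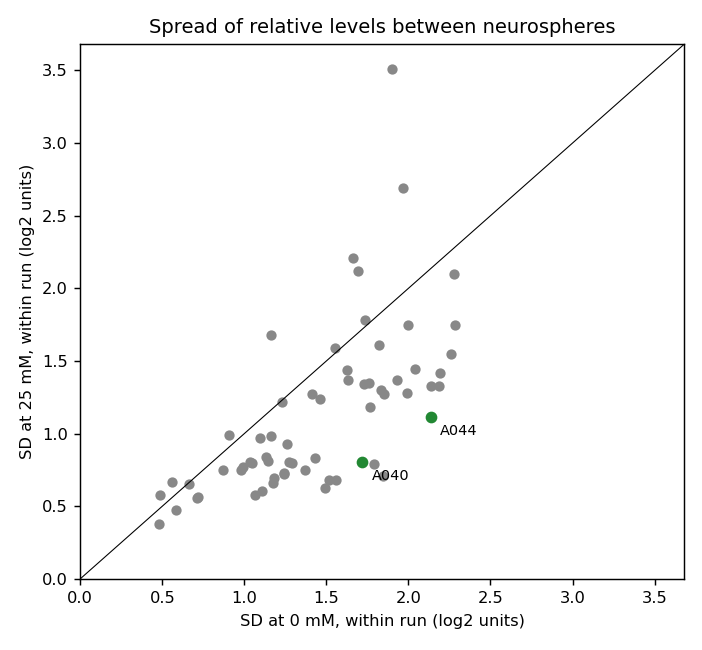
Within-run SD of the relative level (log2 units) of each of 63 assays at 0 mM (horizontal axis) and 25 mM (vertical axis), with the line of equal SD; green points passed the test of absolute deviations. With these normalized levels 53 of 63 points lie below the line (28 of 63 without normalization), with A040 and A044 among them; the highest point is A001, whose SD was 1.90 at 0 mM and 3.51 at 25 mM.

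Set-A was measured at the same doses with its own controls, 34 at 0 mM and 32 at 25 mM, and the difference between the sets was tested for each assay. Of 63 assays, 29 differed in their change (46%), 16 with a higher and 13 with a lower value in Set-B. The split was 22 and 9 with the median of the widely detected assays and 16 and 9 with missing values at 30 cycles. With log2 diameter as a covariate 23 assays passed, 11 higher and 12 lower, and 20 of the 29 were kept. Without normalization 1 assay passed. Set-A called 26 of 63 assays (41.3%) and Set-B 25; 11 were called in both, which is 44% of the Set-B list and 42.3% of the Set-A list, and 5 of the 11 had the same direction. The change had the opposite sign in Set-A for 15 of the 25 Set-B calls and for 36 of all 63 assays, so the share among the calls was near that of all assays.

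The named assays fell on both sides of that line. A025 rose in each set, by 1.71 in Set-A (SE 0.28, adjusted p = 1.86e-06, limma), and the sets did not differ beyond their error (0.60, SE 0.53, adjusted p = 0.366). A071 fell in each set, with a change of -0.34 in Set-A (SE 0.14, adjusted p = 0.0477), and its change in Set-B was lower by -1.62 (SE 0.29, adjusted p = 2.35e-06). A019 was 0.35 in Set-A (SE 0.27, adjusted p = 0.315), and the sets differed by 1.69 (SE 0.45, adjusted p = 0.00127). A006 was 1.03 in Set-A (SE 0.57, adjusted p = 0.135), and the sets differed by -3.73 (SE 0.84, adjusted p = 0.000262), a difference that ended with missing values at 30 cycles (-0.66, adjusted p = 0.726). Without normalization the set differences of A071, A019 and A006 did not pass, with adjusted p of 0.215, 0.374 and 0.12. Run 1 was the one run that held both sets, since the other neurospheres of Set-A were in run 2 and those of Set-B in run 3. In run 1 alone 5 assays differed between the sets: A071 passed (-1.81, adjusted p = 0.0401), while A019 (2.59, adjusted p = 0.0988) and A006 (-3.80, adjusted p = 0.106) did not.

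**Figure D5:**
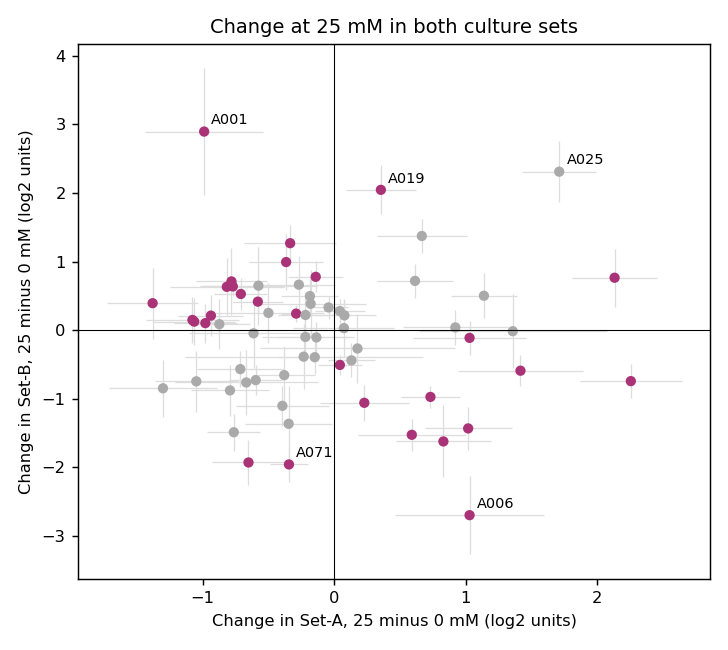
Change at 25 mM (log2 units) of 63 assays in Set-A (horizontal axis) and Set-B (vertical axis), each against its own controls, with SE bars; purple points, 29 in all, differed between the sets. A025 lies high in both sets, and A006 at 1.03 in Set-A and -2.70 in Set-B.

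Diameter also responded differently in the sets. In Set-A it was 68.7 ± 40.5 micrometres (SD) in the 34 unexposed and 37.6 ± 10.5 in the 32 exposed neurospheres, and the log2 difference in Set-B exceeded that in Set-A by 0.59 (SE 0.18, adjusted p = 0.0078, permutation test). For mean cycle number (0.19 cycles, SE 0.72, adjusted p = 0.918) and detected assays (2.23, SE 1.69, adjusted p = 0.561) the difference between sets did not pass.

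Higher doses in Set-B share the same 34 unexposed neurospheres, so their values are set side by side without a comparison. At 70 mM 49 of 63 assays passed (77.8%) and at 100 mM 50 (79.4%). The change of A025 was 2.31 at 25, 4.75 at 70 and 4.36 at 100 mM. A019 was 2.05, -0.03 and 0.11, A006 -2.70, -1.07 and -0.82, and A071 -1.96, 1.34 and 1.83 in the same order. A040 was -1.93, 1.32 and 1.39. Thus A071 and A040 stood below their controls at 25 mM and above them at 70 and 100 mM. At each of the higher doses the SE was 0.23 for A071 and 0.26 for A040. The changes at 70 and 100 mM come from a fit of all Set-B doses, those at 25 mM from the fit of 0 and 25 mM. Other scalings were not tried at 70 and 100 mM. The mean cycle number was 14.6 ± 2.29 (SD) in the 32 neurospheres at 25 mM, 11.6 ± 1.99 in the 33 at 70 mM and 10.6 ± 1.71 in the 33 at 100 mM.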

How the data were processed

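Ct values were calculated by the instrument's software after 30 cycles with EvaGreen dye, per the labels' protocols, and were deposited without normalization, per the file headers. Whole lysates, with no RNA purified, went into reverse transcription and pre-amplification. The labels do not state primer efficiencies or what a missing entry means. A Ct holds no count of molecules; errors here come from the neurospheres' spread.

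Relative levels of assays detected in at least 50% of the 66 neurospheres, and in at least 3 of each run and dose, went into limma (version 3.58.1, under R 4.3.3) with run as covariate and Benjamini-Hochberg adjustment at 0.05; 12 assays were left out. Permutation tests (two-sided) drew 100000 resamples within run, which allow no p below 1e-05. For the 6 whole-neurosphere measures, the p of a single run, code letter or other setting replaced that measure's main p before adjustment. Other steps used scipy 1.17.1 with Python 3.11.15. Tests were checked on simulated data. Named assays are the 2 largest rises and 2 largest falls with adjusted p under 0.05 and the same direction in both runs, plus assays alone or paired in a test. The comparison and the lists were chosen with earlier results of these data known. Alternatives covered normalization, missing values, filters, runs, covariates, pairing and size.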

Additional observations from a re-analysis of the deposited data

Results flagged for a closer look

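The following results are listed because 2 groups responded differently to the same contrast in a test of that difference. The change of A001 in run 3 minus that in run 1 was -10.3 log2 units. The change in Set-B minus that in Set-A was 1.69 for A019, -3.73 for A006 and -1.62 for A071, and 29 assays in all differed between the sets. The response of log2 diameter differed between the sets by 0.59. Between code letters C and B of run 3, the response of mean cycle number differed by -4.20 cycles and that of detected assays by 8.81, in tests added after the values were seen.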

How the results depend on the processing

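Alternative values of the main results were set against the main ones. Single tests were compared by direction and side of the threshold. Counts of calls were compared by their total alone, within 1.5 times, and not by direction or by which assays passed. By these rules 52 stayed the same, 12 counts moved, 6 tests reversed, 2 gained and 1 lost a call. The 25 changed assays became 5 without normalization, 9 in run 1 alone, 12 in size group M alone (54 tested) and 11 in code letter B alone. The single run difference became 0 with missing values at 30 cycles (limma, 9 at an unadjusted p under 0.05). The 29 set differences became 1 without normalization and 5 in run 1 alone. The 2 spread calls became 17 with deviations from the mean, 14 in run 3 alone and 0 in run 1 alone (limma, 1 at an unadjusted p under 0.05), and 3 without normalization, where neither A040 nor A044 passed. The detection call became 0 in run 1 alone and 0 in size group M alone (exact test; 0 and 2 at an unadjusted p under 0.05).

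Mean cycle number was -0.0114 in run 1, 2.65 in code letter B (adjusted p = 0.0498) and -1.55 in code letter C (adjusted p = 0.153); detected assays differed by 0.64 in run 1. The deviation of mean cycle number was -0.38 with run and code letter as a block. The deviation of diameter was 0.10 in run 1, and the profile deviation was 0.00704 in run 1, -0.36 in run 3 and 0.0342 without normalization. A001 was -0.24 in run 3 and -1.48 in code letter B. The causes were not tested.

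The neurosphere codes recur at both doses, and 14 of 32 code pairs correlated above 0.1 (median r = 0.01, from -0.74 to 0.82). With their own code 3 of 32 correlated best. These values were not set against chance, so whether neurospheres of the same code share more than the code was not tested. With the code as a replicate block 21 assays passed, all among the 25, and the A001 call ended (2.69, adjusted p = 0.0834). No depth stands behind a cycle number, and each dose had 1 culture set here, so differences between cultures cannot be told apart from differences between doses.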
